A study of Mus musculus with 6 samples.

Results

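Immune, macrophage and cytokine genes were examined in cartilage of the growth plate, dissected from the hind limbs of mouse embryos at E17.5. Members were taken by gene symbol from the table of transcripts that accompanies the libraries: complement components, Cd antigens, chemokines, interleukins and their receptors, interferon-induced genes, H2 genes, toll-like receptors, colony-stimulating factors, Fc receptors, Ly antigens, the TNF and NF-kappaB families, S100a8 and S100a9. The rule found 82 transcripts, each of a different gene, among 7671 rows of which 6612 carry a symbol. The table names 1 transcript identifier for each gene, and for 2 of the 82, Ly6c2 and Nfkbiz, that identifier has a count in each library. The counted identifiers carry no symbol of their own, so further transcripts of the 82 genes may be among them without being recognised. For the other 80 members the table holds the authors' own comparison alone, and their expression is not analysed here. The results below are therefore about these 2 transcripts, and they say nothing of the level or the change of macrophage, complement or MHC genes.

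There were 3 libraries of Tet1+/+ and 3 of Tet1-/- embryos, all of a C57BL/6 x 129S4/SvJae background. Whether each library is 1 embryo is not stated, so the tests measure only the spread between these libraries. The Tet1-/- embryos lack TET1, an enzyme that oxidises methylated cytosine, in every cell, so the deletion is not limited to cartilage. By the study's methods the mutants came from matings of heterozygotes, and skin and bone were removed before the cartilage was frozen. The RNA is that of bulk tissue, in which fewer cells of a type and less RNA per cell cannot be told apart.

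Cartilage of the growth plate has no vessels of its own, and most immune cells of a growing limb lie in the marrow, the vessels and the tissue around the cartilage. Macrophages arrive early in development and depend on CSF1 acting on its receptor CSF1R. Osteoclasts share that lineage, and they need RANK ligand, which the decoy receptor osteoprotegerin (Tnfrsf11b) holds back. Chondrocytes themselves answer cytokines through NF-kappaB, so genes of this group need not come from blood cells.

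The 82 genes fall into 11 of the 12 classes of symbols, since the table holds no toll-like receptor. Complement is given by 4 genes, the 3 chains of C1q, which starts the classical pathway (C1qa, C1qb, C1qc), and C3, on which all complement pathways meet. Cd symbols form the largest class, with 20 genes. Among these are the tetraspanins Cd9, Cd63, Cd81, Cd82 and Cd151, the hyaluronan receptor Cd44, the lysosomal macrophage protein Cd68, the lipid-presenting molecule Cd1d1, and Cd24a and Cd200, surface glycoproteins. The class also holds Cd52, Cd93, Cd97, Cd99l2, Cd109, Cd164, Cd248 and Cd276. Cd2bp2 and Cd3eap stand in it by their names alone, because Cd3eap encodes a subunit of RNA polymerase I and Cd2bp2 a factor of the spliceosome that was named for its binding to CD2. Chemokines are Ccl9, Ccl21a, Cxcl12 and Cxcl14.

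Interleukins and interleukin receptors number 15. The ligands and antagonist are Il1f6, Il1f8 and Il1f9, which are epithelial cytokines of the IL-36 group, Il1rn, the natural antagonist of the IL-1 receptor, and Il17d. The receptor chains are Il1r2, Il1rap, Il1rl1, Il6st, Il10rb, Il11ra1, Il11ra2, Il13ra1, Il17rd and Il22ra1. Interferon-induced genes and interferon regulatory factors number 9: Ifi27l2a, Ifi30, Ifitm1, Ifitm2, Ifitm3, Ifitm5, Ifitm6, Irf1 and Irf3. Ifitm5 is known as a gene of osteoblasts in spite of its family name. H2 symbols number 7. H2-K1, H2-Q1, H2-Q7 and H2-T10 belong to class I, H2-DMa and H2-Eb1 to class II, and H2-Ke2 encodes a subunit of the chaperone prefoldin that lies in the same region.

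The remaining classes are smaller. Csf1 and Csf1r are a ligand and its receptor. Fcer1g and Tyrobp are signalling adaptors of myeloid cells, Fcgr2b is an inhibitory Fc receptor, Fcgrt the neonatal Fc receptor, and Ptprc (CD45) a phosphatase of all white blood cells. Ly antigens number 6, Ly6c2, Ly6d, Ly6g6c, Ly6g6d, Ly6g6e and Ly86, and S100a8 is the one member of its class. The TNF and NF-kappaB class has 9 genes. Nfkb1 encodes a subunit of the factor, Nfkbia the inhibitor that holds it in the cytoplasm, and Nfkbiz a nuclear protein of the inhibitor family. Tnfrsf1a is a receptor of TNF, Tnfrsf19 a related receptor, Tnfrsf11b the decoy named above, and Tnfaip1, Tnfaip6 and Tnfaip8 are genes induced by TNF.

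All 82 symbols matched a RefSeq gene on GRCm38, 2 of them, Cd97 (Adgre5) and H2-Ke2 (Pfdn6), through an older symbol. They lie on 19 chromosomes, with 12 on chromosome 7 and 11 on chromosome 17. Several members are neighbours in the genome, which the rule did not use. With gaps of at most 200 kb between genes, 5 runs of 3 or more members were found. The 5 Ifitm genes lie within 67.9 kb of chromosome 7 (140948958 to 141016892), and the 3 C1q genes within 18.7 kb of chromosome 4 (136880126 to 136898844). Il1f6, Il1f8, Il1f9 and Il1rn lie within 198.3 kb of chromosome 2 (24153172 to 24351491). On chromosome 17, Ly6g6c, Ly6g6d and Ly6g6e span 13.9 kb (35067325 to 35081239), and H2-Ke2, H2-K1, H2-DMa and H2-Eb1 span 377.8 kb (33938909 to 34316674).

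Of the macrophage markers, 9 of 12 have a row in the table (C1qa, C1qb, C1qc, Cd68, Csf1r, Fcer1g, Mrc1, Ptprc and Tyrobp), of the neutrophil markers 3 of 8, of the osteoclast markers 3 of 6 and of the lymphocyte markers 0 of 8. All 6 chondrocyte markers have one. None of the identifiers named for these markers was found among the counted ones, and other transcripts of these genes could not be recognised there. Neither the tissue nor the share of immune cells was therefore checked against its markers in a library. Each library's counts totalled 196075 to 422436 over 21929 transcript identifiers, of which 21 are also rows of the table and 10 of these carry a symbol. These sums are far below the number of paired reads that the study's methods report per sample, so they are not the sequencing depth. Why they are so small was not tested. Values scaled to a library's sum are relative to the counted identifiers only. Tet1 (chromosome 10 of GRCm38, 62804570 to 62908996) was not located among the counted identifiers either, since the one identifier named for it is not there and others of its transcripts would go unrecognised, so no label was held against the targeted gene. The library labelled Tet1-/- replicate 1 stood apart among the 10 transcripts with a symbol. Krt42, a keratin, had 340 counts there and Klk15 293, and both had 0 counts in the other 5 libraries, while Edar, a gene of hair development, had 808 there and at most 61 elsewhere. Arl5c had 1249 there and 0 to 209 elsewhere, and CALM5 had 255 there and 0 to 11 elsewhere. Grip2 was lowest there, with 270 against 565 to 1780. Values are given with and without this library.

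Ly6c2 (uc007wgp.1) is a protein-coding gene of chromosome 15 (GRCm38, 75108158 to 75111970, minus strand). Its product is a small surface antigen anchored to the membrane by a lipid, best known as a mark of monocytes. Its neighbour Ly6c1 (75044018 to 75048830, same strand), which is known from endothelial cells, is a near copy. The sequences are shown because a read, or its mate in the pair, must cover a differing base to tell the genes apart. The first 100 coding bases of both, read from GENCODE vM21, are given 5′ to 3′, with the bases that differ in capitals.
Ly6c2: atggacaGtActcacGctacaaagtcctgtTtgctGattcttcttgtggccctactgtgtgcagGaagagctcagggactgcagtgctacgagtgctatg
Ly6c1: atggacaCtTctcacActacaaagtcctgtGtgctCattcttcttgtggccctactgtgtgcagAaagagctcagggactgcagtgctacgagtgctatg
These stretches differ at 6 bases. Over the whole coding sequence of 393 bases the genes differ at 9, an identity of 97.7%, and the longest stretch without a difference is 188 bases. Of the 723 windows of 100 bases in the main Ly6c2 transcript, 114 (15.8%) also occur in a Ly6c1 transcript. GENCODE vM21 lists 4 transcripts of Ly6c2, and 692 of the windows (95.7%) also occur in another of these. How the authors' counting divided reads between the genes and among the transcripts is not stated, so the count of uc007wgp.1 is uncertain on both grounds and is not a count of the whole gene.

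Ly6c2 had 25, 175 and 31 counts in Tet1+/+ replicates 1, 2 and 3. In Tet1-/- replicates 1, 2 and 3 it had 37, 53 and 29 counts. One library, Tet1+/+ replicate 2, was high and held 50.0% of the summed count, and the other 5 ran from 25 to 53, with both genotypes overlapping. The count of 175 has a 95% exact Poisson interval of 150.0 to 202.9, while the next highest, 53, has one of 39.7 to 69.3. These intervals cover counting error only, with each estimated count taken as a tally of reads. They leave out how reads were divided between genes and among transcripts. On that reading the high library differed from the rest by more than counting error, and it did so within its own genotype. The 53 of Tet1-/- replicate 2 was above the upper bounds of the other 4, which were 36.9, 41.6, 44.0 and 51.0. Its own interval began at 39.7 and so overlapped those that ended at 41.6, 44.0 and 51.0. These counts are not scaled for the sum of each library, and a difference of the 53 from the other 4 was not tested.

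After scaling to CPM, the count relative to the sum of its library on the usual per-megacount scale, with TMM, a normalisation for library size and composition, Ly6c2 averaged 283 ± 310 CPM in Tet1+/+ and 125 ± 56.4 CPM in Tet1-/- cartilage (SD, n = 3 each). The log2 fold change was −1.18 (standard error 0.91, 95% interval −3.41 to 1.04, adjusted p = 1.00 and unadjusted p = 0.241 by the edgeR quasi-likelihood test). Permuting the libraries exactly, two-sided on mean CPM, gave p = 0.7 (exact permutation test), where 3 against 3 libraries cannot go below 0.1. The lower mean in Tet1-/- rested on Tet1+/+ replicate 2. Without it the log2 fold change was 0.24 (standard error 0.69), and without Tet1-/- replicate 1 it was −1.11 (standard error 1.12). The interval leaves room for no change and for a change of several fold, so a difference in Ly6c2 between the genotypes was not detectable with these counts and this spread.

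**Figure D1:**
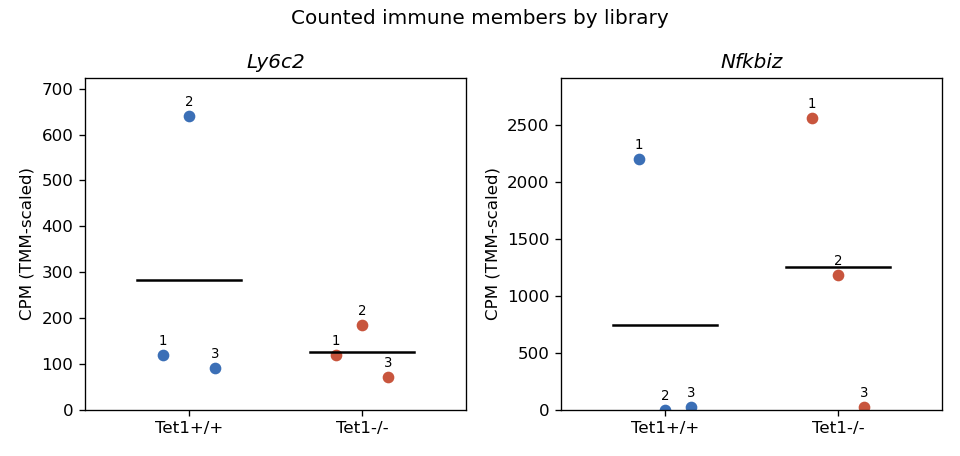
TMM-scaled CPM of Ly6c2 (left) and Nfkbiz (right) in each library, by genotype; points are libraries with their replicate numbers and lines are means (n = 3 each). Tet1+/+ replicate 2 is the single high library for Ly6c2, while Nfkbiz is high in 3 libraries from both genotypes and near 0 in the other 3.

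Nfkbiz (uc007zln.2) is a protein-coding gene of chromosome 16 (GRCm38, 55811375 to 55838899, minus strand). It encodes IκBζ, which differs from the classical inhibitors in that it works in the nucleus, where it binds NF-kappaB on DNA and is needed for secondary response genes such as Il6. It is switched on by IL-1, by toll-like receptor ligands and, in epidermis, by IL-17 and IL-36 cytokines. GENCODE vM21 lists 6 transcripts of the gene. All 4016 windows of 100 bases in its first-listed transcript, Nfkbiz-201, also occur in another transcript of Nfkbiz. A count for one identifier thus depends on how reads were divided among transcripts of the gene, and uc007zln.2 is 1 such identifier.

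The counts of Nfkbiz were 467, 0 and 8 in Tet1+/+ replicates 1, 2 and 3. They were 791, 341 and 10 in Tet1-/- replicates 1, 2 and 3. The libraries fell into high and low ones in both genotypes: 1 of 3 Tet1+/+ and 2 of 3 Tet1-/- libraries had over 300 counts, and the remaining 3 had 10 or fewer. The 0 of Tet1+/+ replicate 2, taken as a tally of reads, allows up to 3 counts, or 11.0 CPM of that library's unscaled sum. That bound leaves out how reads were divided among transcripts. The bound was far under the 341 counts of the lowest of the high libraries, whose exact Poisson interval was 305.8 to 379.2. As CPM of the unscaled library sum, the 467 counts of Tet1+/+ replicate 1 amount to 2382 and the 791 of Tet1-/- replicate 1 to 2325, and after TMM scaling they were 2204 and 2566 CPM. The low libraries with a count rest on 8 and 10 counts, with intervals of 3.5 to 15.8 and 4.8 to 18.4.

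In TMM-scaled CPM, Nfkbiz averaged 742 ± 1266 in Tet1+/+ and 1257 ± 1272 in Tet1-/- cartilage (SD, n = 3 each), and the SD was larger than the mean in each genotype. The log2 fold change was 0.76 (standard error 2.31, 95% interval −4.90 to 6.42, adjusted p = 1.00 and unadjusted p = 0.753 by the edgeR quasi-likelihood test). The same exact permutation test gave p = 0.5. The value moved widely when single libraries were left out. It was 6.63 (standard error 2.58) without Tet1+/+ replicate 1, the one high library of that genotype, and −0.26 (standard error 2.80) without Tet1-/- replicate 1. It was 0.13 without Tet1+/+ replicate 2, 0.19 without Tet1+/+ replicate 3, 0.80 without Tet1-/- replicate 2 and 1.34 without Tet1-/- replicate 3. A difference between the genotypes was not detectable, and the interval spans large changes in both directions.

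Krt42, Klk15 and Edar, which are among the transcripts that set Tet1-/- replicate 1 apart, were read beside Nfkbiz. In Tet1-/- replicate 1, where Nfkbiz had 791 counts, they had 340, 293 and 808. In Tet1+/+ replicate 1, where it had 467 counts, each of the 3 had 0. In Tet1-/- replicate 2, with 341 counts of Nfkbiz, Krt42 and Klk15 had 0 and Edar had 14. In Tet1-/- replicate 3, with 10 counts of Nfkbiz, Krt42 and Klk15 had 0 and Edar had 61. In Tet1+/+ replicates 2 and 3, with 0 and 8 counts of Nfkbiz, Krt42 and Klk15 had 0, and Edar had 13 and 8. Whether what sets Tet1-/- replicate 1 apart has a part in the counts of Nfkbiz, in that library or in the others, was not tested.

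The spread of both transcripts was set beside that of all tested ones. edgeR estimates for each transcript a dispersion, the squared coefficient of variation between libraries of a genotype that is left after counting error. The median over 3503 tested transcripts was 0.47. Ly6c2, at 0.67, was ordinary, with 1354 transcripts above it. Nfkbiz, at 3.30, was among the most variable, with 194 above it, so 5.57% of transcripts reached its dispersion. A library with at most 10 counts and another with at least 300 within the same genotype were found for 44 transcripts (1.26%) in Tet1+/+ and 46 (1.31%) in Tet1-/-. Nfkbiz was 1 of 12 transcripts (0.343%) that met this in both genotypes. Both limits were chosen after its counts had been seen, and the share is a description only.

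**Figure D2:**
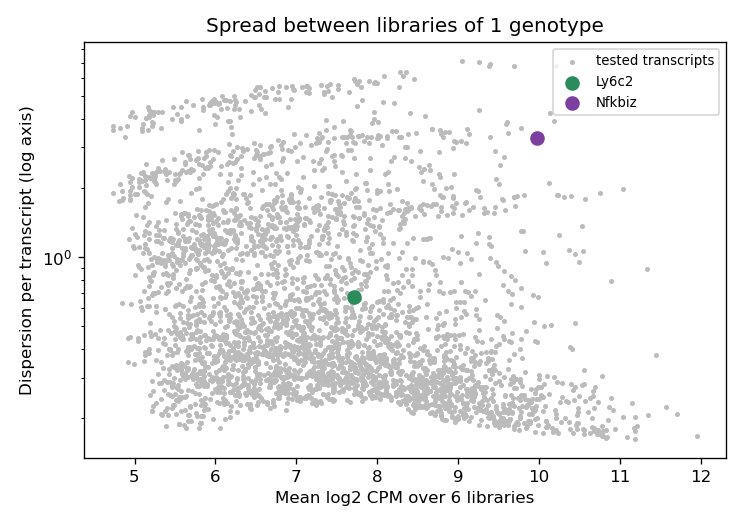
Dispersion between libraries of a genotype (vertical, log axis) against the mean log2 CPM (horizontal) for 3503 tested transcripts in grey. Ly6c2 (0.67) lies in the body of the cloud and Nfkbiz (3.30) in its upper part.

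Of the 2 members tested, 0 had an adjusted p under 0.05 by edgeR and 0 by DESeq2. Over all 3503 transcripts edgeR called 0 (0%) at this threshold, and 161 (4.60%) had an unadjusted p under 0.05, against 0 of the 2 members. DESeq2 gave 3052 transcripts an adjusted p and called 48 of them (1.57%). Ranked by unadjusted p, Ly6c2 stood 800th and Nfkbiz 2607th of the 3503. With 2 members tested, a count of 0 called cannot be told from any of these background shares.

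**Figure D3:**
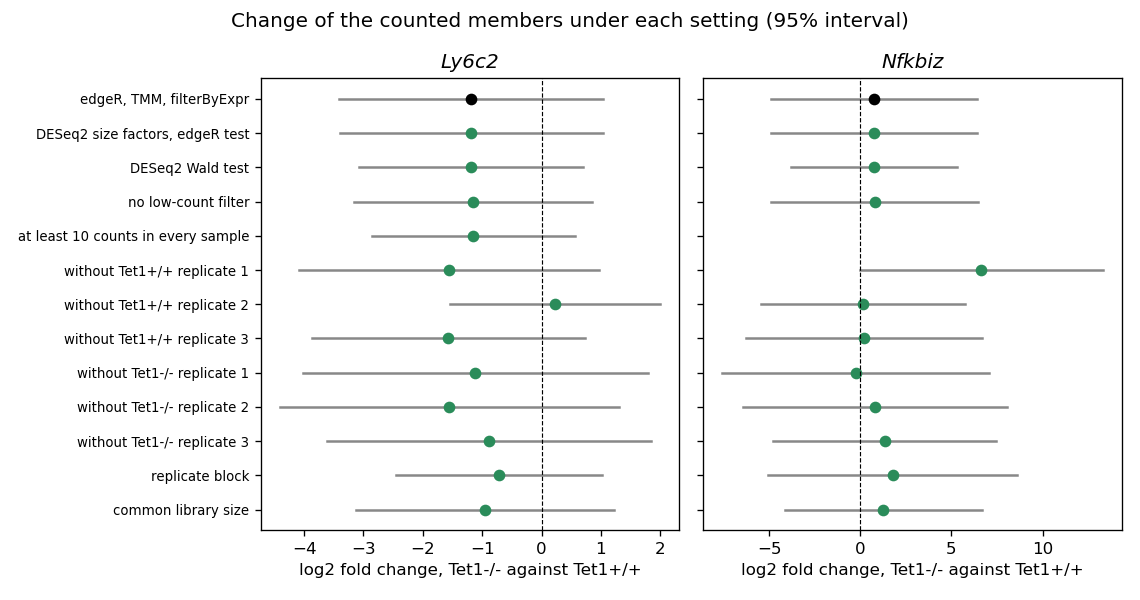
Log2 fold change of Ly6c2 (left) and Nfkbiz (right), Tet1-/- against Tet1+/+, under each setting with 95% intervals; the black point is the value given in the text. Every interval drawn includes 0, and the point for Ly6c2 crosses 0 without Tet1+/+ replicate 2 and that for Nfkbiz without Tet1-/- replicate 1.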

How the data were processed

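RNA of 6 libraries (TruSeq Stranded Total RNA, ribosomal RNA depleted, paired reads of 100 bases) was analysed by the authors, who per their methods and the labels trimmed with Trimmomatic, mapped to mm10 with HISAT2 and assembled with StringTie; versions and the counting step are not given in the sources used here. The authors deposited estimated counts, one unscaled whole number per UCSC transcript and library. The authors' table was read for its identifiers and symbols alone. Its other 3 columns, a signed fold change with p and q values, were not used.

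Identifiers were joined exactly. Counts were rounded, which changed none, filtered with filterByExpr, scaled by TMM and tested by edgeR 4.0.16 (quasi-likelihood, robust, genotype only, Benjamini-Hochberg over all transcripts) in R 4.3.3; DESeq2 1.42.0, Python 3.11.15 and scipy 1.17.1 were also used. edgeR was also run on simulated counts. The outcome is not given here, so it says nothing about how large a change these libraries could detect. No library repeated another, since chi-square per degree of freedom was at least 19.2 over all pairs. Members, markers and lists were chosen with earlier results of these data known. Every member with a count is named; the genes read beside them (Krt42, Klk15, Edar) were chosen after their values were seen. The alternatives are given at the end.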

Additional observations from a re-analysis of the deposited data

How the results depend on the processing

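Neither Ly6c2 nor Nfkbiz was called under any alternative, with adjusted p from 0.622 to 1.00 for Ly6c2 and from 0.953 to 1.00 for Nfkbiz. Leaving out one library at a time, the log2 fold change ran from −1.57 to 0.24 for Ly6c2 and from −0.26 to 6.63 for Nfkbiz. Ly6c2 turned direction (0.24) when Tet1+/+ replicate 2 was left out. Nfkbiz turned (−0.26) when Tet1-/- replicate 1 was. The other 11 refits of Ly6c2 and 10 of Nfkbiz kept the direction. With at least 10 counts in every sample Nfkbiz gave no value. Over all transcripts, calls at an adjusted p under 0.05 were 0 by edgeR and 48 by DESeq2. Dropping the low-count filter gave 3, and asking for 10 or more counts in every sample gave 2. At an unadjusted p under 0.05 they were 161, against 299 with DESeq2, 413 with no filter and 148 to 316 with one library left out, the highest without Tet1-/- replicate 2. Leaving out Tet1+/+ replicate 3 gave 258. The number of transcripts tested also differed from the 3503 behind the 161. It was 9443 with no filter, 1691 with 10 or more counts in every sample, and 3840 to 4239 with 1 library left out. What else moved these numbers was not tested.

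With the replicate number as a block, the log2 fold change was −0.71 for Ly6c2 and 1.78 for Nfkbiz, with 124 transcripts at an unadjusted p under 0.05 and 0 called. Deviations of same-numbered libraries correlated at 0.03, −0.03 and 0.16 across transcripts, against −0.12 to 0.08 for different numbers, and Tet1+/+ replicates 1 and 2 did not correlate best with their own number. Not every pair was over 0.1 and the labels name no shared litter or batch, so the numbers were not taken to pair the libraries. A shared source was not tested otherwise. A common library size, chosen after seeing the data, gave −0.95 and 1.26. The sums of 196075 to 422436 limit what these counts can show, and 2 transcripts do not stand for the group.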
